A study of Homo sapiens with 15 samples.

Results

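The ERK response genes described here were 10 rows of a gene count table, EGR1, FOS, DUSP4, DUSP6, SPRY1, SPRY2, SPRY4, SPRED1, ETV4 and ETV5, chosen by name out of 23346 gene symbols. All 10 passed the filter on low counts and were among the 17401 genes tested. They were followed in H9, an established human embryonic stem cell line, as it was differentiated to definitive endoderm, the germ layer of gut, liver and pancreas. Day 0 cells were undifferentiated H9 cells, maintained in E8 medium, a defined stem cell medium. Day 1 cells had been in Advanced RPMI 1640 with activin A, which acts through the receptors that Nodal uses, and CHIR99021, an inhibitor of the kinase GSK3 that switches on Wnt signalling. Day 2, day 3 and day 4 cells had then been kept in the same base medium with activin A alone. Each day had 3 bulk polyA RNA libraries, numbered 1, 2 and 4, which gives 15 in all. The design names triplicates without saying whether these were separate cultures, so the p-values measure only the spread between these samples, which may be technical. Medium, supplements and day changed together after day 0 and cannot be told apart.

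ERK is the last kinase of the RAS, RAF and MEK cascade, which FGF receptors and other receptor tyrosine kinases switch on. Active ERK induces immediate early genes such as EGR1 and FOS within minutes, partly through the factors SRF and ELK1 at their promoters. It also induces its own brakes, the DUSP phosphatases and the Sprouty and Spred proteins, and the ETS factors ETV4 and ETV5, so the mRNAs of these genes are widely used as a readout of FGF and ERK signalling. FGF signalling keeps human embryonic stem cells undifferentiated and also acts in the primitive streak, from which mesoderm and endoderm form. None of the values below measures ERK activity itself.

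The total count per library ran from 54723184 to 145857940. Levels are CPM, counts scaled to a common library size, with library sizes adjusted for their composition by the TMM method. CPM is not divided by transcript length, so levels were compared between days and not between genes. The summed level of 6 pluripotency markers was 960 to 1560 CPM on day 4 and 3100 to 3880 CPM on day 0. LIN28A gave most of the day 4 sum in each library, averaging 990 CPM on day 4 and 1950 CPM on day 0. The others averaged less on day 4 than on day 0: POU5F1 54.6 and 449 CPM, SOX2 8.17 and 201 CPM, NANOG 28.9 and 173 CPM. PRDM14 averaged 5.39 and 56.4 CPM on these days, and DPPA4 112 and 747 CPM. The sum of 6 definitive endoderm markers was 886 to 4340 CPM on day 4 and 27 to 33.9 CPM on day 0. In replicate 1 of days 3 and 4 this sum was 1040 and 886 CPM, with 2970 to 5570 CPM in the other 4 libraries of those days. CER1 gave the largest part of the sum in each library of days 3 and 4, and FOXA2 and SOX17 were not the lowest in day 3 replicate 1. Values without these 2 libraries are given beside the calls they change. In bulk RNA, fewer cells that express a gene and less RNA per cell cannot be told apart.

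The 10 genes did not move as 1 group. By edgeR's quasi-likelihood test with Benjamini-Hochberg adjustment over all genes tested, 7 of the 10 varied over the 5 days at an adjusted p under 0.05, where 37.3% of all genes did. These were EGR1, FOS, DUSP4, DUSP6, SPRY1, SPRY2 and ETV4, while SPRY4, SPRED1 and ETV5 did not pass. On day 1 against day 0, 2 of 10 were called, 0 higher and 2 lower, beside 10.4% of all genes called (5.49% higher and 4.88% lower). On day 2 against day 1, 4 were called, 1 higher and 3 lower, beside 8.27% of all genes (4.93% higher and 3.34% lower). On day 3 against day 2 the count was 0 of 10 beside 0.948% of all genes, and on day 4 against day 3 it was 0 of 10 beside 0% of all genes. At an unadjusted p under 0.05, 5 of the 10 and 14.2% of all genes passed on day 3 against day 2. On day 4 against day 3 the unadjusted counts were 0 of 10 and 1074 genes, which was 6.17% of all genes. DESeq2 called 3 of the 10 (EGR1, DUSP6 and SPRY2) and 964 of all genes on day 3 against day 2. It called 0 of the 10 and 64 of all genes on day 4 against day 3. On day 4 against day 0, 2 of the 10 were higher and 3 lower, beside 34.2% of all genes called (18% higher and 16.2% lower). The libraries of the days did not overlap for 5 of 10 genes on day 1 against day 0 (29.9% of all genes), 7 on day 2 against day 1 (35.7%), 3 on day 3 against day 2 (17.9%), 0 on day 4 against day 3 (9.26%) and 5 on day 4 against day 0 (40.5%). Of the other day pairs, 5 of 10 were called for day 2 against day 0 (20.7% of all genes), 5 for day 3 against day 0 (33.9%), 5 for day 3 against day 1 (21%), 6 for day 4 against day 1 (20.8%) and 0 for day 4 against day 2 (2.46%). For day 4 against day 1, FOS, SPRY1 and ETV5 lost their calls without day 1 replicate 2, and SPRY1 and ETV5 without replicate 1 of days 3 and 4. With all libraries, ETV4 passed for day 2 against day 0 at adjusted p = 0.0468. With a single library left out, this call stood only without day 2 replicate 4, day 3 replicate 4 or day 4 replicate 1. For day 3 against day 0, ETV4 lost its call without day 0 replicate 4 or day 3 replicate 1 or 2, and FOS without day 0 replicate 1 or day 3 replicate 2. The median log2 fold change of the 10 genes was -0.45, -0.14, 1.01 and -0.07 for the 4 consecutive steps, with -0.02, 0, 0.01 and 0.01 for all genes. Without replicate 1 of days 3 and 4 the medians of the 10 genes were -0.47, -0.08, 0.60 and -0.19. Without replicate 1 of days 3 and 4, the counts called were 3, 6, 0 and 0 of 10 for the consecutive steps, with 2041, 1675, 68 and 0 of all genes. For day 4 against day 0 they were then 6 of 10 and 6140 of all genes. Without day 0 replicate 1 or day 1 replicate 1, the count for day 1 against day 0 was 0, and without day 1 replicate 2 or 4 it was 1. Without day 3 replicate 4, the count for day 3 against day 2 was 2. With single libraries left out, all genes called on day 1 against day 0 ran from 1036 (without day 1 replicate 1) to 2639 (without day 0 replicate 4). On day 3 against day 2 they ran from 5 to 247.

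**Figure D1:**
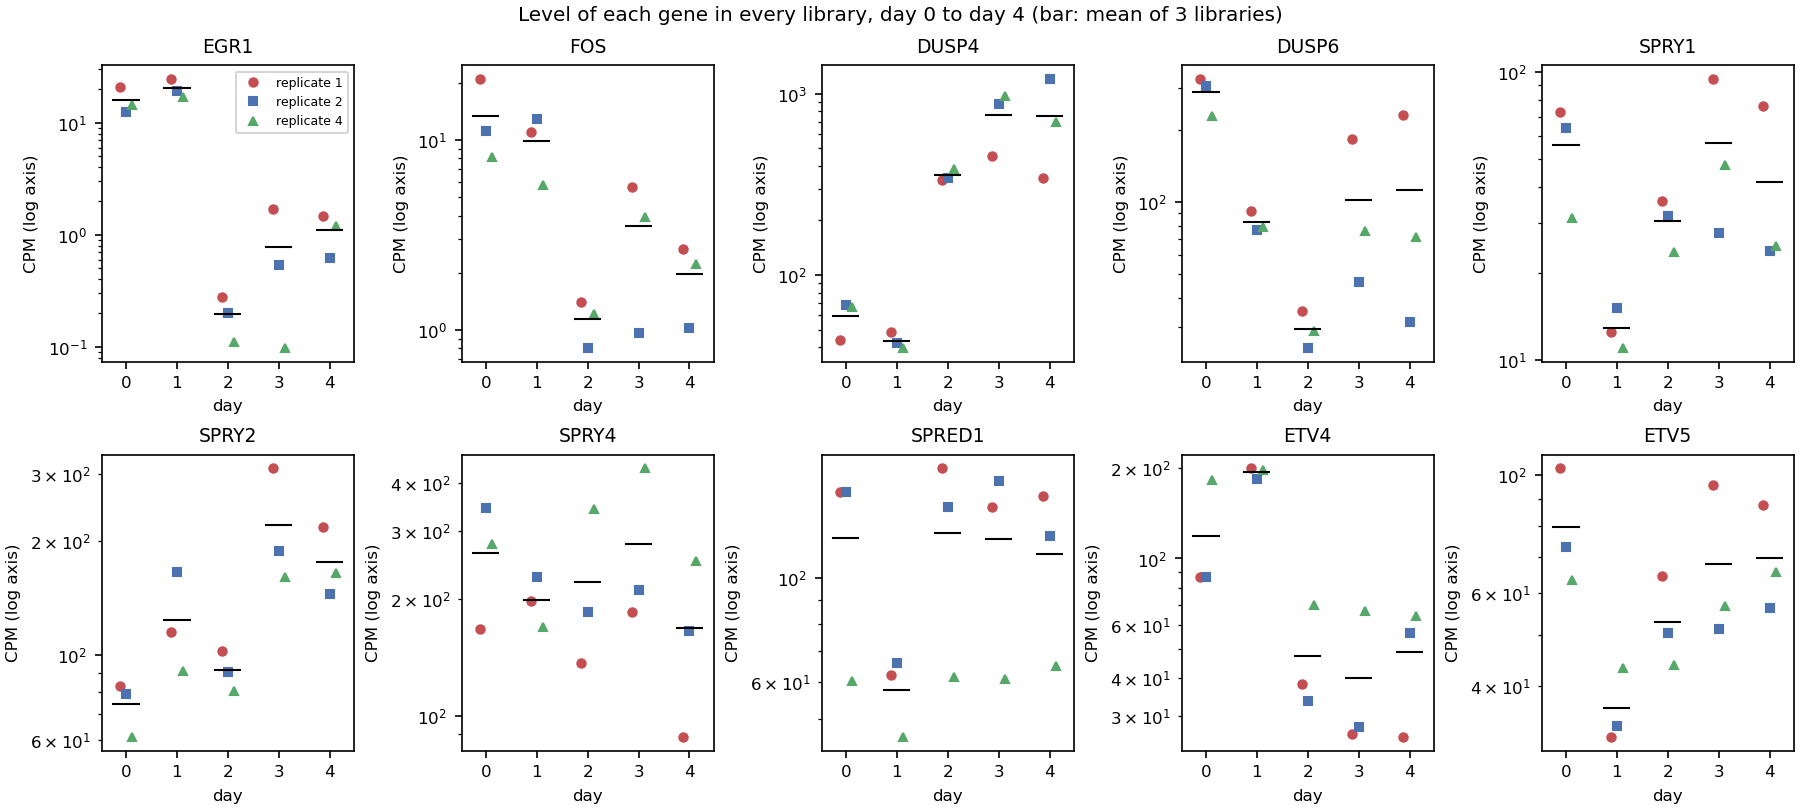
CPM of each of the 10 genes (vertical log axis) by day (horizontal axis), with a point per library and a bar at the mean of the 3 libraries. EGR1 averaged 0.196 CPM on day 2 and 20.2 CPM on day 1, and DUSP4 averaged 354 CPM on day 2 and 43.4 CPM on day 1.

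The immediate early transcription factors EGR1 and FOS had their lowest means on day 2. EGR1, a zinc finger factor, had 20.8, 12.4 and 14.4 CPM in replicates 1, 2 and 4 of day 0 and 24.7, 19.1 and 16.9 CPM in those of day 1. It had 0.276, 0.201 and 0.11 CPM on day 2, 1.71, 0.541 and 0.0971 CPM on day 3 and 1.47, 0.619 and 1.2 CPM on day 4. Every library of days 0 and 1 was above every library of days 2 to 4. EGR1 fell on day 2 by 6.66 on the log2 scale relative to day 1 (SE 0.83, adjusted p = 1.64e-04), and all 3 day 2 libraries were below all 3 day 1 libraries. Its day 2 mean was 0.966% of its day 1 mean. Days 1 and 0 did not differ by the test (log2 fold change 0.35, SE 0.63, adjusted p = 0.783). In the order of its means, day 1, 0, 4, 3 and 2, the neighbouring days 4 and 0 were the pair that differed by edgeR with all libraries. Their log2 fold change was -3.85 (SE 0.71, adjusted p = 8.61e-04). Day 3 against day 2 had a log2 fold change of 2.00 (SE 0.70, adjusted p = 0.188), 2.53 (adjusted p = 0.0306) without day 3 replicate 4, 0.65 (adjusted p = 0.729) without day 3 replicate 1 and 0.64 (adjusted p = 0.699) without replicate 1 of days 3 and 4. By DESeq2 with all libraries it was 2.02 (adjusted p = 0.0467). The day 2 values rested on few reads, since the lowest count of EGR1 in any library was 8.

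FOS, which pairs with JUN proteins in the AP-1 factor, had 21, 11.1 and 8.14 CPM on day 0 and 11, 12.9 and 5.76 CPM on day 1. It had 1.4, 0.803 and 1.21 CPM on day 2, 5.64, 0.961 and 3.93 CPM on day 3 and 2.67, 1.02 and 2.23 CPM on day 4. The day 3 libraries spread over 5.87-fold. FOS fell on day 2 by 3.12 on the log2 scale relative to day 1 (SE 0.61, adjusted p = 0.00498), and was lower on day 4 than on day 0, by a log2 fold change of -2.77 (SE 0.60, adjusted p = 0.00272). No pair of neighbours in the order of its means, day 0, 1, 3, 4 and 2, passed the test. FOS counts were higher relative to EGR1 counts in every day 2 library than in any day 1 library: the ratio of FOS to EGR1 was 5.07, 4 and 11 on day 2, against 0.447, 0.678 and 0.34 on day 1. These ratios did not overlap, and the exact 2-sided permutation test gave p = 0.1, the smallest that 3 against 3 libraries allow, or 0.2 adjusted over the 20 ratio comparisons made.

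The promoters of EGR1 and FOS are shown as those of the immediate early transcription factors among the 10 genes. Both had their lowest mean on day 2, as did DUSP6, whose window is not shown. RefSeq windows on build GRCh38.p14 were matched by symbol for 7 of the 10 genes, not for DUSP4, ETV4 and ETV5, and only the 250 bases before the start are used. The EGR1 window is chr5:138465229-138465478 on the + strand and the FOS window is chr14:75278578-75278827 on the + strand. Capitals mark CArG boxes, the sites bound by SRF, which were searched on both strands.
EGR1: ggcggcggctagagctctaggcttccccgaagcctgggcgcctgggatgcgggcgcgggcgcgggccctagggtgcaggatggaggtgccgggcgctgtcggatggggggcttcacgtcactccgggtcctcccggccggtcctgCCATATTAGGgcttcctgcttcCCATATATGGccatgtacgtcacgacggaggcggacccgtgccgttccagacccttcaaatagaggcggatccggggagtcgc
FOS: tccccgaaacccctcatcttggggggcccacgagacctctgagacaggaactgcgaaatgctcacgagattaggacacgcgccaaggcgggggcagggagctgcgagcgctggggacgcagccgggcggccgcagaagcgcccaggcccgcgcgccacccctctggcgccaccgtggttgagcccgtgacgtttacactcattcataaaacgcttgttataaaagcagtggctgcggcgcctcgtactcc
The EGR1 window held 2 CArG boxes, CCATATTAGG at positions -105 to -96 and CCATATATGG at -83 to -74 before the start, where 1.16% of 35116 promoters of the same length held such a box. Its boxes do not overlap each other. No CArG box was found in the FOS window or in those of DUSP6, SPRY1, SPRY2, SPRY4 and SPRED1. Bases farther than 250 from the start were not searched, so this does not show that FOS or the others lack such a box. The ETS motif CCGGAA, searched on both strands in the 10 windows of these 7 genes, was present in 1 window each of SPRY1 and SPRY2, where 14.5% of promoters held it. EGR2, a relative of EGR1 that also fell on day 2, had CCATATATGG at -71 to -62 before 1 of its starts on chromosome 10, and no box before its other starts. Further genes outside the 10 that fell on day 2 were not looked at singly, so no link between a box and a fall can be read. A match is a description of the letters and was not tested for binding.

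Of the phosphatase genes, DUSP4 was higher and DUSP6 lower on day 2 than on day 0, both past the test. On day 3 against day 2 both had positive values that did not pass by edgeR. These log2 fold changes were 1.12 for DUSP4 and 1.79 for DUSP6, with 1.04 for DUSP6 without replicate 1 of days 3 and 4. By DESeq2 with all libraries, DUSP6 passed on that step (1.80, adjusted p = 0.0322) and DUSP4 did not (1.14, adjusted p = 0.0814). DUSP4 encodes a nuclear phosphatase that removes the activating phosphates of ERK, and DUSP6 a cytoplasmic one that prefers ERK. DUSP4 had 44, 68.6 and 66.2 CPM on day 0 and 48.5, 42.1 and 39.5 CPM on day 1. It had 336, 343 and 384 CPM on day 2, 455, 873 and 974 CPM on day 3 and 342, 1210 and 695 CPM on day 4. All 9 libraries of days 2 to 4 lay above all 6 of days 0 and 1. DUSP4 rose on day 2 relative to day 1 by a log2 fold change of 3.03 (SE 0.41, adjusted p = 3.31e-04) and its level was higher on day 4 than on day 0, by 3.65 (SE 0.43, adjusted p = 1.76e-05). With all libraries, in the order of its means, day 3, 4, 2, 0 and 1, days 2 and 0 were the only neighbours that differed (log2 fold change 2.57, SE 0.41, adjusted p = 3.54e-04). Day 4 against day 2 had a log2 fold change of 1.08 (SE 0.39, adjusted p = 0.156). It passed without replicate 1 of days 3 and 4 (1.43, adjusted p = 0.0213) and without day 4 replicate 1 (1.45, adjusted p = 0.0357). Replicate 1 was the lowest library of days 3 and 4, and without both of these the log2 fold change for day 4 against day 0 was 4.05, with the same call.

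DUSP6 had 329, 307 and 229 CPM on day 0, 91.9, 76.5 and 79.3 CPM on day 1 and 35.3, 24.6 and 29 CPM on day 2. It had 185, 46.7 and 75.7 CPM on day 3 and 233, 31.7 and 71.9 CPM on day 4. The libraries of days 0, 1 and 2 formed 3 bands without overlap, while day 4 alone spanned 7.33-fold. DUSP6 was lower on day 2 than on day 0 by 3.28 on the log2 scale (log2 fold change -3.28, SE 0.61, adjusted p = 0.00134). Its single steps did not pass, with log2 fold changes of -1.80 for day 1 against day 0 (SE 0.58, adjusted p = 0.0582) and -1.48 for day 2 against day 1 (SE 0.57, adjusted p = 0.132). Both passed without replicate 1 of days 3 and 4 (adjusted p = 0.0024 and 0.016). The first step also passed by DESeq2 (adjusted p = 0.0118), with no filter (0.0462) and with only the days compared in the fit (0.00153). The second step passed with only the days compared (adjusted p = 0.00272), but not by DESeq2 (0.0666). Of single libraries, day 3 replicates 1 and 2 and day 4 replicates 1 and 2 each brought the first step past the threshold when left out (adjusted p = 0.0355, 0.0444, 0.0132 and 0.0232), and day 4 replicate 1 the second step (adjusted p = 0.0465). Day 4 against day 0 had a log2 fold change of -1.36 (SE 0.57, adjusted p = 0.0753), and -2.40 without day 4 replicate 1 (adjusted p = 0.00281). Without replicate 1 of days 3 and 4 it was -2.41 (adjusted p = 5.35e-04), and by DESeq2 with all libraries -1.37 (adjusted p = 0.0416). Day 3 against day 0 had a log2 fold change of -1.49 (SE 0.57, adjusted p = 0.0545), and -2.19 without replicate 1 of days 3 and 4 (adjusted p = 0.00114). In the main edgeR fit with all libraries, none of the neighbours in the order of the DUSP6 means, day 0, 4, 3, 1 and 2, differed.

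The balance of these phosphatase mRNAs within a library does not depend on scaling. Gene length was not divided out, so only its change is read. The ratio of DUSP4 to DUSP6 counts was 0.134, 0.223 and 0.289 on day 0, 0.528, 0.55 and 0.499 on day 1 and 9.51, 13.9 and 13.2 on day 2. It was 2.46, 18.7 and 12.9 on day 3 and 1.47, 38.2 and 9.66 on day 4. Thus DUSP6 counts exceeded DUSP4 counts in all 6 libraries of days 0 and 1, and DUSP4 counts exceeded DUSP6 counts in all 9 later ones. The mean log2 ratio was 3.59 on day 2, against -0.93 on day 1, a difference of 4.52 (exact 2-sided permutation test p = 0.1, the smallest possible; 0.2 adjusted over the 20 ratio comparisons). The change of day 4 against day 0 was 5.31 on the log2 scale, also without overlap (exact p = 0.1), with replicate 1 of days 3 and 4 nearest to the early libraries.

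**Figure D2:**
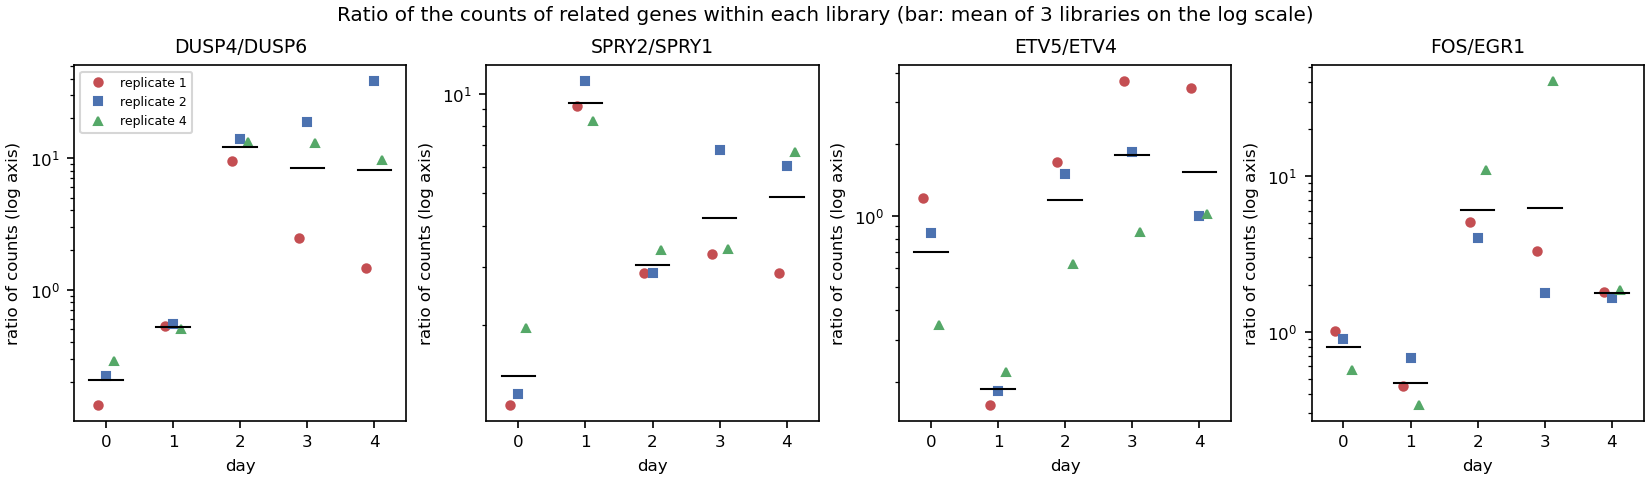
Ratio of the counts of related genes within each library (vertical log axis) by day (horizontal axis), with a point per library and a bar at the mean on the log scale. DUSP4 over DUSP6 was 9.51 to 13.9 on day 2 and 0.499 to 0.55 on day 1.

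The Sprouty genes encode cytoplasmic inhibitors that act between the receptor and RAF, and their mRNAs followed separate courses. SPRY1 had 72.5, 63.7 and 31.1 CPM on day 0, 12.5, 15.2 and 11 CPM on day 1 and 35.6, 31.6 and 23.8 CPM on day 2. It had 94.8, 27.7 and 47.5 CPM on day 3 and 76, 24 and 24.8 CPM on day 4. The 3 day 1 libraries were the lowest of all 15. SPRY1 fell on day 1 by 2.11 on the log2 scale relative to day 0 (SE 0.51, adjusted p = 0.0135). That call was lost without day 0 replicate 1 (adjusted p = 0.0585), day 1 replicate 1 (0.0588) or day 1 replicate 4 (0.0629). Day 2 against day 1 had a log2 fold change of 1.23 (SE 0.50, adjusted p = 0.148). It passed without replicate 1 of days 3 and 4 (1.30, adjusted p = 0.0304) and with only the days compared in the fit (1.23, adjusted p = 0.00979). SPRY1 was higher on day 3 than on day 1 by a log2 fold change of 2.14 (SE 0.51, adjusted p = 0.00767), and on day 4 than on day 1 by 1.69 (SE 0.50, adjusted p = 0.0258). Without replicate 1 of days 3 and 4 these values for SPRY1 were 1.61 (adjusted p = 0.00996) and 0.99 (adjusted p = 0.0835). The day 4 call was also lost without day 4 replicate 1 (0.98, adjusted p = 0.134) or day 1 replicate 1, 2 or 4 (adjusted p = 0.0798, 0.0569 and 0.0839). Its joint call over the 5 days was lost without day 1 replicate 1, 2 or 4 (adjusted p = 0.0728, 0.0526 and 0.0787). Day 4 against day 0 had a log2 fold change of -0.42 (SE 0.49, adjusted p = 0.535) with all libraries and -1.14 (adjusted p = 0.0389) without replicate 1 of days 3 and 4.

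SPRY2 had its lowest mean on day 0, with 83.1, 79.1 and 60.8 CPM. It had 115, 166 and 90.9 CPM on day 1, 103, 90.5 and 80.6 CPM on day 2, 312, 188 and 161 CPM on day 3 and 218, 145 and 165 CPM on day 4. All 6 libraries of days 3 and 4 were above all 3 of day 0. SPRY2 was higher on day 4 than on day 0 by a log2 fold change of 1.24 (SE 0.31, adjusted p = 0.00618), and on day 3 than on day 0 by 1.57 (SE 0.31, adjusted p = 0.00141). The step of day 3 against day 2 was 1.27 (SE 0.31, adjusted p = 0.0602), with no overlap between these libraries. It passed with the replicate number as a block (log2 fold change 1.24, adjusted p = 0.019) and without day 3 replicate 4 (1.47, adjusted p = 0.0351), but was 0.93 without day 3 replicate 1 (adjusted p = 0.264) and without replicate 1 of days 3 and 4 (adjusted p = 0.218). With all libraries it also passed by DESeq2 (1.29, adjusted p = 0.00342) and with the filter of CPM over 1 in 3 libraries (1.27, adjusted p = 0.0491). No neighbours in the order of its means, day 3, 4, 1, 2 and 0, differed. Relative to SPRY1, SPRY2 counts were highest on day 1: the ratio of SPRY2 to SPRY1 was 9.18, 10.9 and 8.3 on day 1, against 1.15, 1.24 and 1.96 on day 0. On day 2 it was 2.88, 2.87 and 3.38, which overlapped neither day 0 nor day 1 (exact permutation p = 0.1 for the steps on days 1 and 2, 0.2 adjusted over the 20 comparisons).

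SPRY4 had no difference between days that passed. Its means were 263 ± 88.7, 199 ± 29.5, 222 ± 107, 278 ± 139 and 168 ± 81.3 CPM on days 0 to 4 (SD, n = 3 each), and the joint test gave adjusted p = 0.582 by edgeR. On days 2, 3 and 4 the order of libraries was the same, replicate 4 above 2 above 1, with 342, 186 and 137 CPM on day 2. SPRED1, a Sprouty relative that holds neurofibromin at the membrane, averaged 122 ± 53.6, 57.9 ± 10.7, 125 ± 57.4, 121 ± 53.2 and 113 ± 43.5 CPM on days 0 to 4 (SD, n = 3 each). Its joint test gave adjusted p = 0.27 by edgeR. With the replicate number as a block that test passed (adjusted p = 0.0167), though the numbers are not shown to pair all days. Replicate 4 was its lowest library on every day, with 60.4, 45.7, 61.4, 61 and 64.9 CPM. On days 0, 2, 3 and 4 the other replicates of SPRED1 had 123 CPM or more, and on day 1 they had 62 and 65.8 CPM. These p-values do not show that SPRY4 or SPRED1 stayed level.

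The ETS factors ETV4 and ETV5, close relatives in the PEA3 family, had their means in different orders: day 1 was the highest for ETV4 and the lowest for ETV5. ETV4 had 86.8, 86.5 and 183 CPM on day 0 and 200, 184 and 197 CPM on day 1. It had 38.3, 33.6 and 69.8 CPM on day 2, 26, 27.6 and 66.7 CPM on day 3 and 25.4, 56.4 and 64.5 CPM on day 4. No later library reached any library of day 0 or day 1. ETV4 fell on day 2 by 2.04 on the log2 scale relative to day 1 (SE 0.46, adjusted p = 0.0117). Without day 1 replicate 1, day 2 replicate 1 or day 2 replicate 2 the adjusted p was 0.0523, 0.0708 and 0.0827. Day 1 against day 0 had a log2 fold change of 0.71 (SE 0.44, adjusted p = 0.357). ETV4 was lower on day 4 than on day 0, by a log2 fold change of -1.28 (SE 0.45, adjusted p = 0.0372). This last call was lost without day 0 replicate 4 (-0.76, adjusted p = 0.206), without day 4 replicate 1 (-0.91, 0.145) or without day 4 replicate 2 (-1.34, 0.0889). It was also lost without any library of day 1 (0.0631 to 0.0646), day 2 replicate 1 (0.0584), day 2 replicate 2 (0.0548) or day 3 replicate 2 (0.0504), without replicate 1 of days 3 and 4 (-0.92, 0.126), with library totals alone as scaling (0.0525) and with only the days compared in the fit (0.0766). Days 4 and 0 were the only neighbours that differed in the order of its means, day 1, 0, 4, 2 and 3.

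ETV5 had 103, 73.1 and 63.4 CPM on day 0, 32, 33.6 and 43.3 CPM on day 1 and 64.4, 50.3 and 43.8 CPM on day 2. It had 95.5, 51.2 and 56.7 CPM on day 3 and 87.8, 56.1 and 65.6 CPM on day 4. As for SPRY1, its 3 day 1 libraries were the lowest of all 15. ETV5 fell on day 1 by 1.14 on the log2 scale relative to day 0 (SE 0.31, adjusted p = 0.0276), a call lost without day 0 replicate 1 (adjusted p = 0.114) or day 1 replicates 1 (0.126) or 2 (0.114). Its level on day 4 was above that on day 1, by a log2 fold change of 0.94 (SE 0.31, adjusted p = 0.0404). That call was lost without replicate 1 of days 3 and 4 (0.82, adjusted p = 0.0806), day 4 replicate 1 or 4 (0.103 and 0.0669) or day 1 replicate 1 or 2 (0.129 and 0.121). ETV5 on day 3 against day 1 had a log2 fold change of 0.90 (SE 0.31, adjusted p = 0.0488). Without replicate 1 of days 3 and 4 it was 0.63 (adjusted p = 0.191). The call was also lost without day 1 replicate 1, 2 or 4, day 2 replicate 2, day 3 replicate 1 or day 4 replicate 4. Its joint test over the 5 days gave adjusted p = 0.0534, which passed under 5 other settings, DESeq2 among them (0.0105). The ratio of ETV5 to ETV4 counts was 0.16, 0.182 and 0.22 on day 1, against 1.19, 0.845 and 0.346 on day 0. It was 1.68, 1.5 and 0.627 on day 2, against those day 1 ratios, again with no overlap (exact permutation p = 0.1 for each step, 0.2 adjusted over the 20 comparisons).

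**Figure D3:**
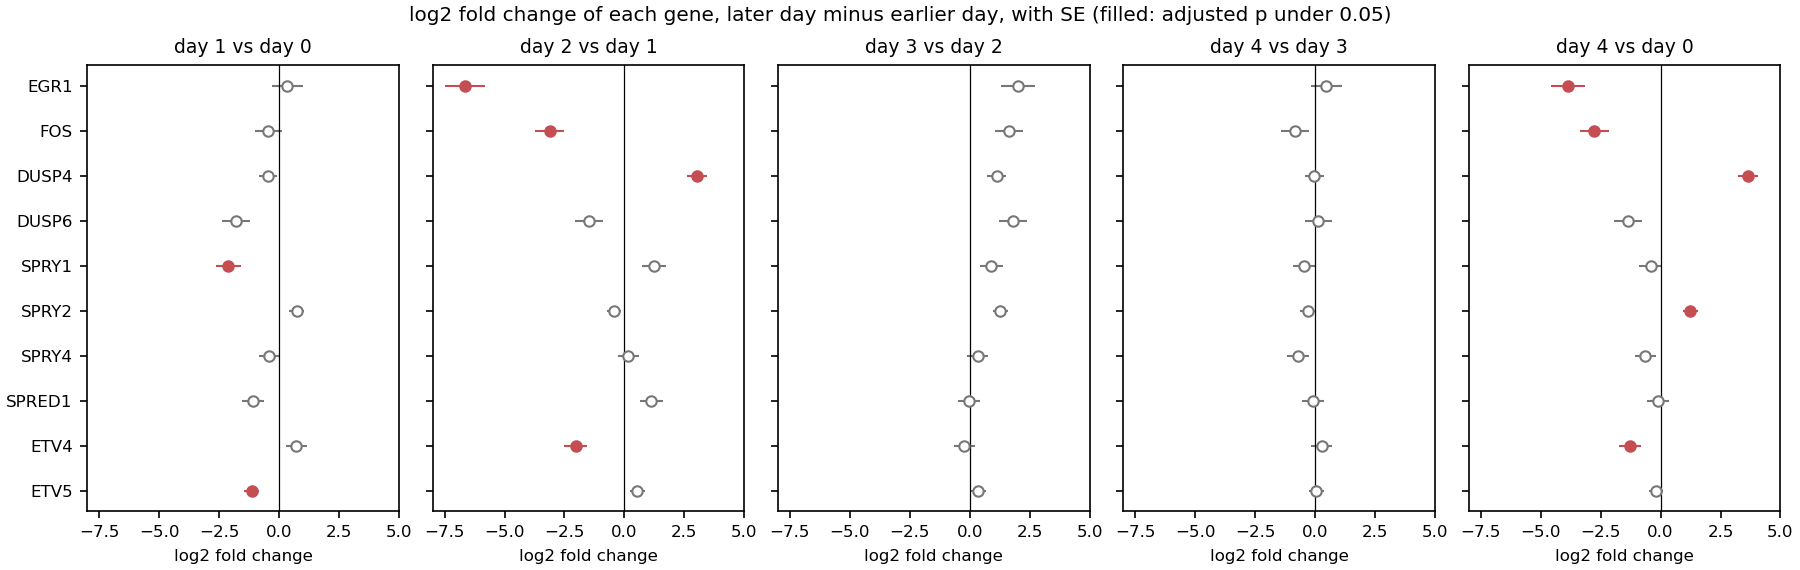
log2 fold change of each of the 10 genes, later day minus earlier day (horizontal axis), with its SE, for the 4 consecutive steps and for day 4 against day 0. Filled points passed an adjusted p under 0.05: EGR1, FOS and ETV4 (negative) and DUSP4 (positive) did so on day 2 against day 1, and none did on days 3 and 4 against the day before.

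Libraries of the same day differed from each other in these genes, among them replicate 1 of days 3 and 4. On day 3, DUSP6 was at 185 CPM in replicate 1, against 46.7 and 75.7 CPM in replicates 2 and 4, and on day 4 at 233 CPM, against 31.7 and 71.9 CPM. SPRY1 was at 94.8 CPM on day 3 and 76 CPM on day 4 in replicate 1, with the other replicates at 24 to 47.5 CPM. EGR1, FOS, SPRY2 and ETV5 also had their highest library of both days in replicate 1, and DUSP4, SPRY4 and ETV4 their lowest. At 2-fold or more above both other libraries were EGR1 and DUSP6 on day 3 and DUSP6 and SPRY1 on day 4, beside 5.23% and 11.8% of all genes tested. DUSP4 and ETV4 were 2-fold or more below both on day 4, beside 13.6% of all genes. Other libraries also stood 2-fold or more from both others of their day. In day 3 replicate 4, SPRY4 and ETV4 were above and EGR1 and SPRED1 below, beside 12.7% and 13.1% of all genes. FOS was below both in day 3 replicate 2 (8.46% of all genes), and FOS and DUSP6 in day 4 replicate 2 (6.11%). In day 0 replicate 4, ETV4 was above and SPRY1 and SPRED1 below (13.3% and 9.6%), and SPRED1 was below in day 2 replicate 4 (11.7%). In the same replicate 1 libraries of days 3 and 4, the endoderm antagonist CER1 had 478 and 397 CPM, with 1870 to 4480 CPM in the others, and the T-box factor EOMES 60.3 and 81.6 CPM, with 326 to 452 CPM in the others. The ligand FGF8 had 1.58 and 1.57 CPM, with 24.9 to 38.2 CPM in the others, and FGF17 228 and 167 CPM, with 634 to 1390 CPM in the others. The receptor FGFR1 had 939 and 803 CPM, with 263 to 379 CPM in the others. Of the 6 definitive endoderm markers, 3 were lowest and 1 highest in replicate 1 on day 3, and 4 were lowest and 0 highest there on day 4. FOXA2 had 252 CPM in day 3 replicate 1, with 116 and 48.2 CPM in the others, and SOX17 had 121 CPM, with 103 and 224 CPM in the others. Summed levels of 6 mesoderm markers were 472 and 249 CPM in these libraries and 72 to 223 CPM in the other 4, with the mesodermal receptor gene PDGFRA at 188 and 133 CPM and 32 to 59.9 CPM in the others. HAND1 and PDGFRA made up most of that sum, and FOXF1 was lowest in replicate 1 on both days (6.39 and 4.69 CPM, with 8.09 to 12.4 CPM in the others). Of 3 extraembryonic endoderm markers, TTR had 0 counts in all 15 libraries, SOX7 reached at most 5.34 CPM and AFP at most 7.74 CPM. The part of these other genes in the values of the 10 genes was not tested.

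**Figure D4:**
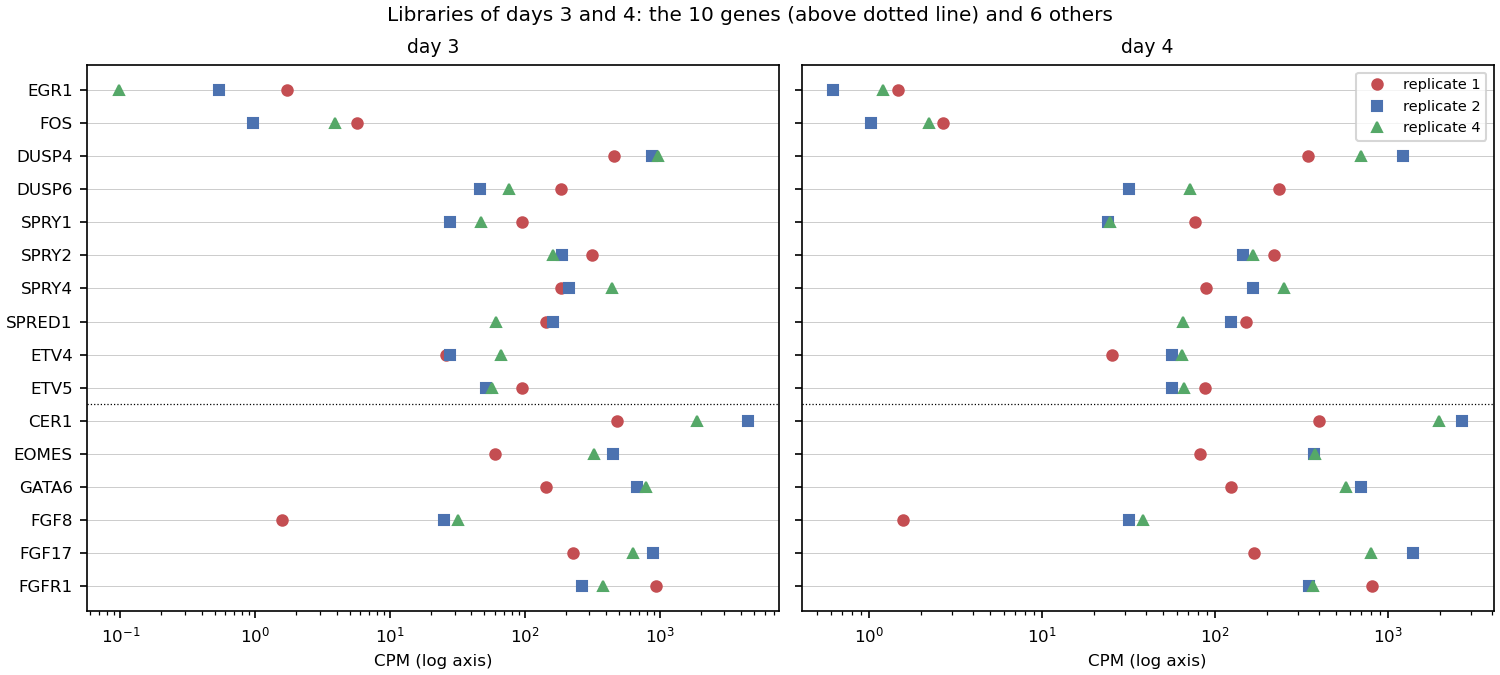
CPM (horizontal log axis) in each library of day 3 and of day 4 for the 10 genes above the dotted line and for 6 endoderm and FGF genes below it. DUSP6 and SPRY1 were highest, and DUSP4, CER1, EOMES, GATA6, FGF8 and FGF17 lowest, in replicate 1 on both days.

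Other genes of the pathway were taken from 4 lists written from general knowledge, but with earlier results of these data known. Of 20 other immediate early genes, 5 rose and 1 fell on day 1 against day 0, and on day 2 against day 1 the counts were 1 and 4. All genes were called at 10.4% and 8.27% in these comparisons. The median log2 fold changes of the list were 0.85 and -0.52. Without replicate 1 of days 3 and 4, 1 rose and 5 fell on day 2 against day 1, with 1675 of all genes called. The zinc finger genes EGR2 and EGR3 fell with EGR1 on day 2: EGR2 averaged 0.0307 ± 0.0532 CPM on day 2 and 6.59 ± 2.08 CPM on day 1 (edgeR adjusted p = 7.19e-04). EGR3 averaged 0.032 ± 0.0164 CPM on day 2 and 3.39 ± 1.52 CPM on day 1 (edgeR adjusted p = 7.28e-04). No fold is given for either, since EGR2 had 0 counts in all day 2 libraries but replicate 1 and EGR3 only a few counts there. EGR3 also rose on day 1 against day 0, by a log2 fold change of 3.36 (SE 0.83, adjusted p = 0.0154), while EGR1 did not pass there; the difference between these genes was not tested. FOSL2, a FOS relative, fell on day 2 by a log2 fold change of -2.10 (SE 0.53), and so did IER2 (-1.80, SE 0.52). IER3 rose on day 1 (4.40, SE 0.99) and was higher on day 4 than on day 0 (5.46, SE 1.05), as was the AP-1 gene JUN (2.48, SE 0.74). In replicates 1, 2 and 4 of day 4, IER3 had 35.3, 521 and 622 CPM and JUN 8.74, 42.8 and 67.5 CPM. JUN had 4.21, 4.77 and 12.3 CPM on day 0, so its libraries of these days overlapped. On day 4 against day 0 the count was 6 higher and 2 lower of 20, where 34.2% of all genes were called. Without replicate 1 of days 3 and 4 it was 7 higher and 2 lower, with 6140 of all genes called. BTG2, an antiproliferative gene, averaged 83 ± 28.1 CPM on day 4 and 3.25 ± 0.764 CPM on day 0 (SD, n = 3 each).

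Of 20 other feedback regulators and ETS genes, 5 rose and 2 fell on day 1 against day 0, 0 were called on day 2 against day 1, and 5 rose and 5 fell on day 4 against day 0, beside 10.4%, 8.27% and 34.2% of all genes. Without replicate 1 of days 3 and 4, 7 were higher and 5 lower on day 4. Their median log2 fold changes were 0.16, -0.18 and -0.27 for these comparisons. DUSP10, a phosphatase that prefers p38 and JNK, rose on day 1 (log2 fold change 2.55, SE 0.58) and was higher on day 4 than on day 0 (4.32, SE 0.63). SPSB1 rose on day 1 (2.12, SE 0.42). DUSP2, a nuclear phosphatase, was lower on day 4, with 0.285 ± 0.126 CPM, against 4.4 ± 1.81 CPM on day 0 (log2 fold change -3.93, SE 0.84). ETV1, the third PEA3 factor, averaged 54.6 ± 8.5 CPM on day 1 and 153 ± 51.9 CPM on day 0, a fall of the same sign as that of ETV5 (log2 fold change -1.49, SE 0.38, adjusted p = 0.0181).

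Of 24 genes of the RAS to ERK cascade, 1 rose and 0 fell on day 1 against day 0, 1 rose and 0 fell on day 2 against day 1, and 3 rose and 0 fell on day 4 against day 0, again beside 10.4%, 8.27% and 34.2% of all genes. Their medians were 0, 0.13 and -0.04 on the log2 scale. Without replicate 1 of days 3 and 4, 1 gene fell in each of these comparisons, and the counts that rose were the same. All genes called then numbered 2041, 1675 and 6140. ELK3, a partner of SRF, rose on day 1 (log2 fold change 1.63, SE 0.31), and MAP2K1, the MEK1 gene, rose on day 2 to 214 ± 14.4 CPM, against 94 ± 4.52 CPM on day 1 (1.18, SE 0.35, adjusted p = 0.0481). Of 12 FGF ligands and receptors, 6 rose and 2 fell on day 1 against day 0, with FGF4 at 23.2 ± 5.08 CPM on day 1 and 0.154 ± 0.0378 CPM on day 0. All genes were called at 10.4% there. The 2 that fell were FGF2, with 43.6 ± 2.53 CPM on day 1 and 238 ± 117 CPM on day 0, and FGFR2, with 9.74 ± 0.247 and 80.3 ± 4.14 CPM. On day 2 against day 1, 1 was higher and 3 lower, beside 8.27% of all genes. FGF4 fell (log2 fold change -4.59, SE 1.02) and FGFR2 rose (2.64, SE 0.27). On day 4 against day 0, 4 were higher and 2 lower, beside 34.2% of all genes.

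Across the 15 libraries, likeness of pattern was described by Pearson's r of log2(CPM + 1). The points share library and depth, and the 3 libraries of a day share their condition. The most alike pairs among the 10 genes were SPRY1 and ETV5 (r = 0.901) and EGR1 and FOS (r = 0.895). The most unlike were EGR1 and DUSP4 (r = -0.932) and FOS and DUSP4 (r = -0.819). ETV4 and ETV5 had r = -0.532, and DUSP4 and DUSP6 had r = -0.508. Among 10911 other genes that averaged 5 CPM or more over the libraries, the genes most like EGR1 were HAS3 (r = 0.954), THBS2 (0.952) and GPR50 (0.946). Those most like DUSP4 were UPK1B (0.987), USP2 (0.984) and MCF2L2 (0.984), and those most like DUSP6 were SLC16A10 (0.955), ELOVL7 (0.928) and LMO3 (0.913). ETV4 was most like CCDC86, PES1 (both 0.97) and PUS1 (0.969), and SPRED1 most like EXOC6 (0.964), TMEM38B (0.953) and CD164 (0.952). SPRY1 was most like SLC38A2 (0.947), SPRY2 most like PDE4D (0.922), FOS most like KLKB1 (0.954), ETV5 most like MEGF10 (0.902) and SPRY4 most like HK1 (0.89).

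**Figure D5:**
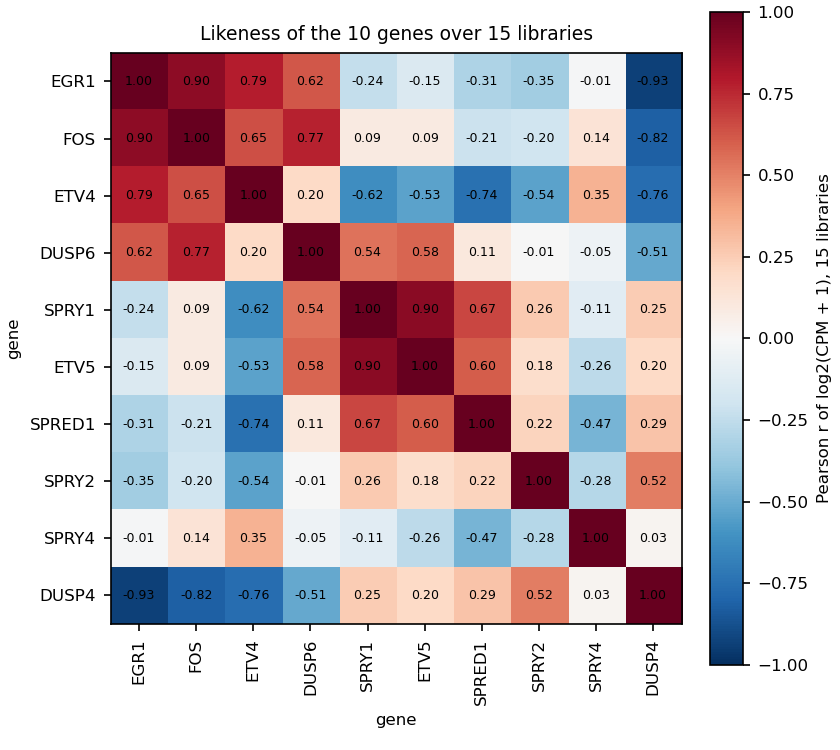
Pearson's r of log2(CPM + 1) over the 15 libraries for every pair of the 10 genes (both axes list the genes; colour runs from -1 to 1). DUSP4 ran against EGR1 (-0.932) and FOS (-0.819), and SPRY1 ran with ETV5 (0.901).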

How the data were processed

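The authors deposited a table of raw counts of each gene symbol in each library. TopHat2 2.0.14 and build hg19 are named in the submitters' processing notes. How reads were counted, with which annotation and whether by strand, is not given in the sources used here. Exons of ETV4 (with DHX8), DUSP6 (with AC024909.2) and ETV5 (with DGKG) overlap other genes in GENCODE annotation, so their levels are uncertain to that extent. Columns were matched to samples by title. Of 23398 rows, 52 repeated a symbol, of which 44 identical rows were dropped and 8 summed. No count was odd, so halved counts were also tried. Libraries of a day differed beyond counting noise (chi-square divided by its degrees of freedom, 76.9 to 1130), so none was taken as a copy.

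Counts were fitted with edgeR 4.0.16 (R 4.3.3, limma 3.58.1): TMM scaling, filterByExpr by day, a mean per day, all 15 libraries in a single fit, quasi-likelihood F-tests and Benjamini-Hochberg adjustment over 17401 genes, with calls at 0.05. SE is the absolute log2 fold change over the square root of F. The biological coefficient of variation was 45.6%. Count ratios were compared by exact permutation tests. DESeq2 1.42.0 was an alternative, beside other scalings and filters, halved counts, a replicate block and libraries left out. Python 3.11.15 with pandas 2.3.3 handled tables.

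Deviations from the day means of same-numbered libraries correlated over 0.1 in every pair between days 3 and 2 (0.418 to 0.779), 4 and 3 (0.189 to 0.776) and 2 and 0 (0.356 to 0.733). Not every pair did so between days 1 and 0, 2 and 1 or 4 and 0. These correlations do not settle whether a number marks the same culture on all days, and the main fit used no pairing. The members and gene lists were chosen with earlier results of these data known. Most genes outside the members were named by rule: of each list the up to 4 called genes with the largest change in a comparison, and the genes most alike in pattern. Outside this rule, FGF2 and FGFR2 were named as those that fell on day 1. Some FGF genes and cell type markers were named to describe the libraries.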

Additional observations from a re-analysis of the deposited data

How the results depend on the processing

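For the 4 consecutive steps and day 4 against day 0, no called direction of the 10 genes reversed under the 9 other settings or when each of the 15 libraries was left out. For the other day pairs, libraries were left out as an alternative chosen after seeing the data, a block was run for day 2 against day 0, other settings were not run, and no called direction reversed. Of 2240 values of single genes, 2128 kept their side of the threshold, 60 lost a call and 52 gained one. The number of the 10 genes called on day 1 against day 0 was 2, and 4 with a replicate block, which is not shown to pair these days. On day 2 against day 1 it was 4, and 7 with the replicate block. On day 3 against day 2 it was 0, and 1 with CPM over 1 in 3 libraries, 3 with DESeq2 and 1 with the replicate block. Leaving out single libraries gave 0 to 3 for day 1 against day 0, 3 to 5 for day 2 against day 1, 0 to 2 for day 3 against day 2, 0 to 0 for day 4 against day 3, 4 to 5 for day 4 against day 0 and 6 to 8 for the joint test. The cause was not tested.

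With the replicate block, DUSP6 passed on day 1 against day 0 (adjusted p = 0.00766), day 2 against day 1 (0.0252) and day 4 against day 0 (0.00496), SPRED1 on day 1 against day 0 (0.0131) and day 2 against day 1 (0.0129), and SPRY1 on day 2 against day 1 (0.0435), all between days that the numbers are not shown to pair. In the joint test ETV5 (0.0166) and SPRED1 (0.0167) passed with it. Apart from SPRY2 on day 3 against day 2, the block changed no call for days 3 against 2, 4 against 3 and 2 against 0, where same-numbered libraries all correlated over 0.1. In each of days 1 against 0, 2 against 1 and 4 against 0, 3 of 6 libraries correlated best with their own number.

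Over all genes, the count called was 1806 on day 1 against day 0 (2837 by DESeq2, 2913 with the block) and 1439 on day 2 against day 1 (2458, 2466, and 2814 with only the days compared). It was 165 on day 3 against day 2 (964 by DESeq2, 590 with the block, 0 with only the days compared and 68 without replicate 1 of days 3 and 4) and 0 on day 4 against day 3 (64 by DESeq2). Single libraries left out gave 1036 to 2639, 612 to 1629, 5 to 247 and 0 to 1 for these steps. Depth limits EGR1 on days 2 and 3, where its lowest count was 8.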
